A study of Mus musculus with 8 samples.

Results

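The aquaporins are a family of membrane channels for water, and 10 of their genes were followed here across GFP-positive cells of the mouse stomach, duodenum and colon. The members were chosen by name as the rows AQP1, AQP2, AQP3, AQP4, AQP5, AQP6, AQP7, AQP8, AQP9 and AQP11, and all 10 were present among the 18131 gene rows of the expression table; mouse symbols are used below. Expression had been measured on Illumina bead arrays, and the values are on a log2 scale, so that a difference of 1 is a 2-fold difference.

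An aquaporin forms a narrow pore that lets water follow the osmotic gradient set up by ion transport. The orthodox members (Aqp1, Aqp2, Aqp4, Aqp5, Aqp6 and Aqp8) are known mainly as water channels, except that Aqp6 is known for conducting anions, the aquaglyceroporins (Aqp3, Aqp7 and Aqp9) also pass glycerol, and Aqp11 is a distant member that resides in the endoplasmic reticulum. In the gut, epithelial aquaporins are known from fluid-secreting glands and from absorptive epithelium.

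The cells were sorted from adult Ngn3-GFP mice, in which regulatory sequence of Neurog3, the gene for the transcription factor that starts endocrine differentiation, drives GFP. Gastric cells came from the pyloric (antral) stomach and were hybridised to 3 arrays, duodenal cells to 3 arrays and colonic cells to 2. All groups share the reporter, with no treatment; GFP marks where that sequence is or was recently active and does not by itself define a mature cell type. Stomach tissue was kept in 10 mM EDTA for 2 h and then Accutase for 30 min, and duodenum and colon in EDTA for 30 min and then dispase for 15 min, so that segment and dissociation cannot be told apart.

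The arrays had medians of 6.90, and the lowest correlation between arrays of the same segment was 0.9974 across rows, which are not independent replicates. The labels do not say whether arrays came from separate animals, so a p-value here reflects the spread among these arrays alone, and that spread may be technical. The samples are labelled enteroendocrine cells, and of 12 endocrine marker genes 11 lay above background in gastric, 10 in duodenal and 9 in colonic cells. Their mean level ran from 10.56 to 10.63 over the gastric arrays, from 8.71 to 8.75 over the duodenal arrays and from 7.57 to 7.58 over the colonic arrays. The list includes Neurog3, whose sequence drives the sorted reporter, so it is no independent check of the label. Of 8 goblet cell markers, 7 lay above background in each segment as well. A lower level in such sorted pools can come from fewer cells of a type or from less RNA per cell, and these cannot be told apart.

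To judge low rows, 1075 olfactory receptor rows, genes not expected in gut epithelium, served as a background reference. The 95th percentile of their values was 6.81. A mean at or under 6.81 is called at background here, and a fold against such a group is given as "at least", computed with 6.81 in place of lower values. By this measure 6 of 10 aquaporin rows lay above background in gastric cells, 8 in duodenal cells and 4 in colonic cells, beside 53.6%, 53.2% and 53.3% of all rows. Aqp1, Aqp4, Aqp8 and Aqp11 were above it in every segment, while Aqp2 and Aqp6 were at background throughout. Levels of different genes were not compared, because each row has its own probe, and a row at background does not show that the transcript was absent.

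**Figure D1:**
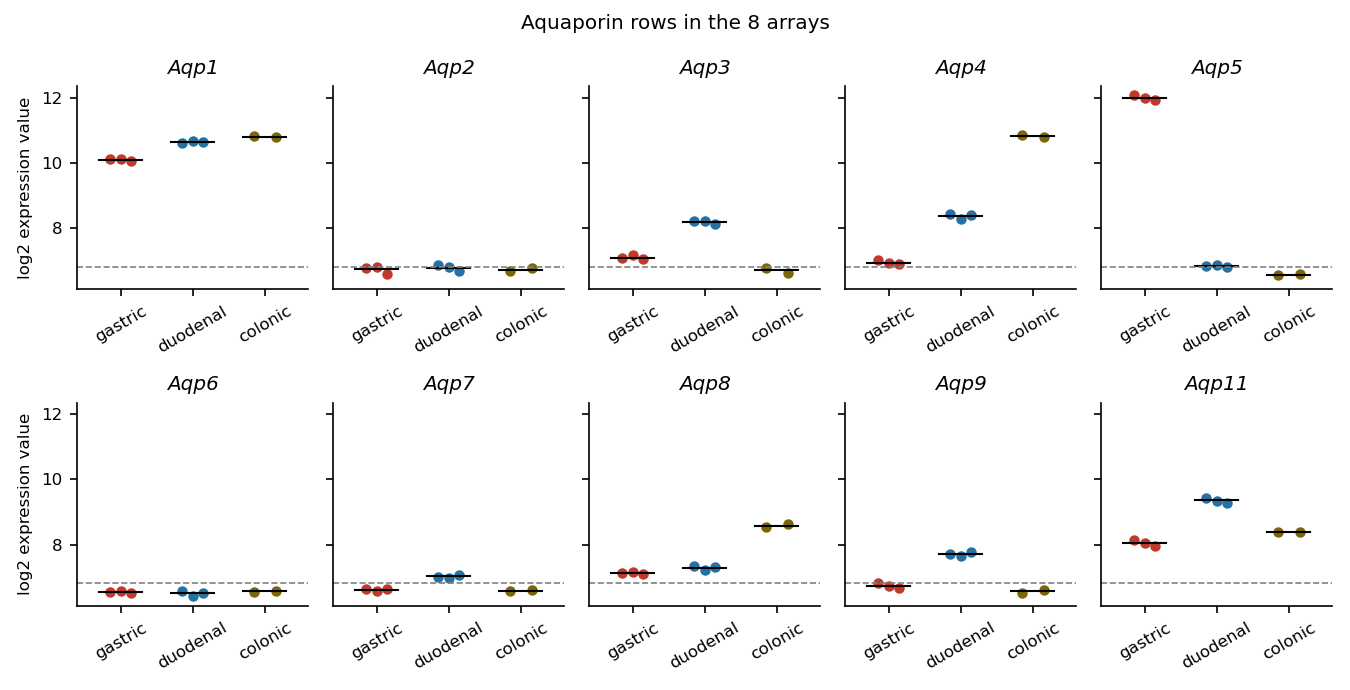
Log2 expression values of the 10 aquaporin rows in each array (points; gastric n = 3, duodenal n = 3, colonic n = 2), with the group mean as a black line and the background reference of 6.81 as a dashed line. Aqp5 stands high in gastric cells, Aqp4 and Aqp8 in colonic cells, and Aqp3, Aqp7, Aqp9 and Aqp11 are highest in duodenal cells.

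Each segment had its own leading aquaporins. Of the 8 rows above background somewhere, Aqp5 was highest in gastric cells, Aqp3, Aqp7, Aqp9 and Aqp11 in duodenal cells, and Aqp1, Aqp4 and Aqp8 in colonic cells. A row was called where its p from limma, adjusted by Benjamini-Hochberg across the 18131 rows, was under 0.05. Between gastric and duodenal cells 8 of 10 rows passed, 1 higher and 7 lower in gastric cells, against 46.6% of all rows called (22.7% higher and 23.9% lower). Between gastric and colonic cells 7 passed, 3 higher and 4 lower in gastric cells, against 44.1% of all rows (20.2% higher and 23.9% lower). Between duodenal and colonic cells 8 passed, 5 higher and 3 lower in duodenal cells, against 34.2% of all rows (16.0% higher and 18.2% lower). The 3 comparisons share groups, so they are not independent of each other.

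With the added demand of a 2-fold difference, 4, 3 and 4 aquaporin rows passed in these comparisons, against 7.77%, 7.41% and 3.56% of all rows. The median size of the log2 difference over the 10 rows was 0.76, 0.37 and 0.69, beside 0.12, 0.13 and 0.10 over all rows. The arrays of the compared groups did not overlap for 8, 7 and 8 aquaporin rows, while 52.7%, 59.3% and 51.9% of all rows had groups without overlap.

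**Figure D2:**
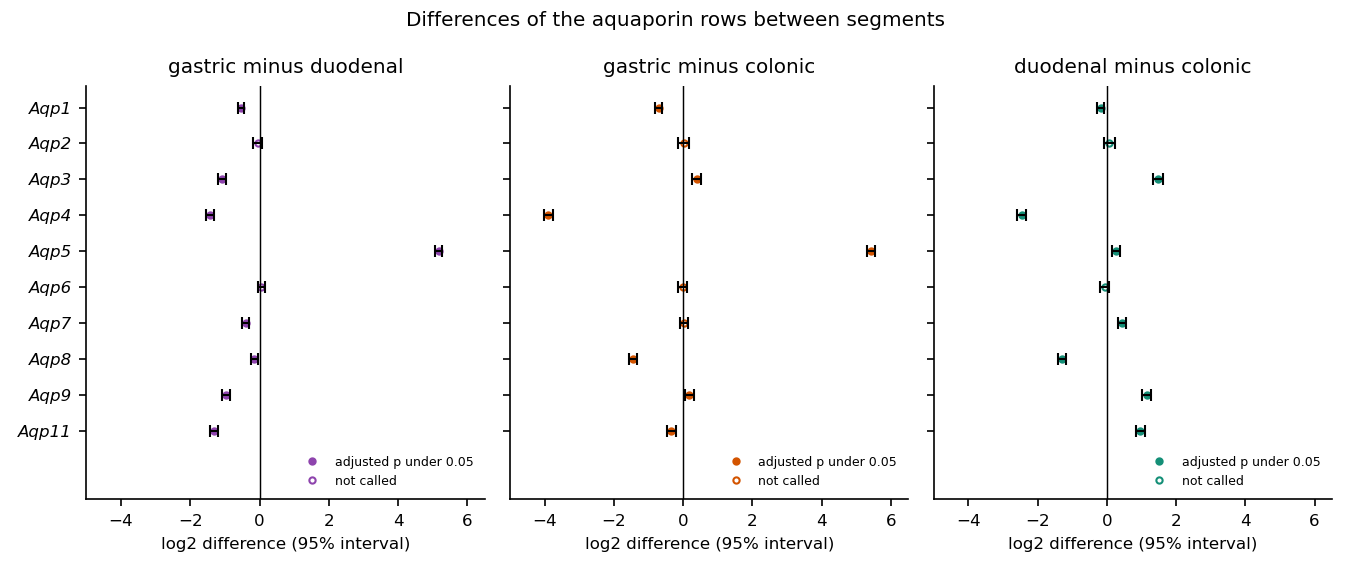
Log2 differences of the 10 aquaporin rows (points) with 95% intervals from limma (bars) in the 3 comparisons, where a positive value means a higher level in the segment named first. Aqp5 lies far to the right in both gastric comparisons, at 5.17 and 5.43, and Aqp4 lies to the left in all 3.

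Aqp5, the apical water channel of salivary, lacrimal and airway glands, was by far the most segment-restricted member. It read 12.08, 11.98 and 11.94 in the gastric arrays, 6.83, 6.86 and 6.82 in the duodenal arrays and 6.55 and 6.58 in the colonic arrays. Every gastric array lay more than 5 log2 units above every other array, and the duodenal values lay at the edge of background. Against duodenal cells the log2 difference was 5.17 (SE 0.05, limma adjusted p = 2.02e-18), a 35.9-fold higher level, and 15 rows of the table differed more between these segments. Against colonic cells Aqp5 was at least 36.4-fold higher (log2 difference 5.43, SE 0.05, limma adjusted p = 2.82e-18). The small duodenal excess over colonic cells, 0.27 (SE 0.05, limma adjusted p = 0.00118), was a difference between a mean just above background and a mean at background.

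Aqp4, the water channel of astrocyte endfeet that is also known from the basolateral membrane of gastric parietal cells, rose from stomach to colon. The gastric arrays read 7.01, 6.93 and 6.89, the duodenal arrays 8.43, 8.29 and 8.41, and the colonic arrays 10.86 and 10.80. No groups overlapped, and the gastric values were close to background. Colonic cells were 14.8-fold higher than gastric cells (gastric minus colonic -3.89, SE 0.06, limma adjusted p = 2.55e-16) and 5.46-fold higher than duodenal cells (duodenal minus colonic -2.45, SE 0.06, limma adjusted p = 1.18e-13). Duodenal cells in turn were 2.71-fold higher than gastric cells (limma adjusted p = 5.87e-12).

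Parietal cells are a known site of Aqp4. Of 8 genes listed as parietal cell markers, 7 were above background in gastric, 3 in duodenal and 4 in colonic cells. Their mean level was 10.30 to 10.35 over the gastric arrays, 7.02 to 7.10 over the duodenal arrays and 7.33 to 7.36 over the colonic arrays. Atp4b, the beta subunit of the gastric proton pump, stood at 12.90 in gastric cells and at background in the other two segments (6.57 and 6.54). Car2 (9.67, 7.24 and 9.56) and Vegfb (9.95, 8.60 and 9.29), from the same list, were above background in every segment. Gif, the highest of the list in gastric cells, stood at 14.27, 7.41 and 6.58. Whether the listed genes mark only parietal cells was not tested, nor was the part of parietal cells in the Aqp4 values.

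Aqp8, a channel of colonic surface epithelium, pancreatic acini and liver that also passes ammonia, was likewise highest in the colon. Its gastric values were 7.13, 7.15 and 7.11, its duodenal values 7.33, 7.21 and 7.31, and its colonic values 8.53 and 8.62. The colonic arrays stood apart, and the other two segments lay close together without overlapping. The level in colonic cells was 2.72-fold that of gastric cells (gastric minus colonic -1.44, SE 0.05, limma adjusted p = 8.94e-12) and 2.45-fold that of duodenal cells (limma adjusted p = 7.16e-11). The 1.11-fold difference between gastric and duodenal cells passed the test (limma adjusted p = 0.0209), but not without gastric replicate 3 (0.0669), duodenal replicate 1 (0.0837) or duodenal replicate 3 (0.0604).

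The mean level of absorptive colonocyte markers rose in the same order as Aqp4 and Aqp8. Of 9 measured, 4 lay above background in gastric, 7 in duodenal and 8 in colonic cells, with mean levels of 8.08 to 8.12, 8.99 to 9.01 and 10.28 to 10.32 over the arrays. Of these 9, 0 were higher and 6 lower in gastric than duodenal cells, beside 46.6% of all rows called. Between duodenal and colonic cells 0 were higher and 6 lower in duodenal cells, beside 34.2% of all rows called. The 3 not called were Slc26a3 (duodenal minus colonic 0.10), Car4 (-0.06) and Slc37a2, which was at background in every segment. Sycn (syncollin), with the largest difference of that list between duodenal and colonic cells, stood at 6.90, 8.17 and 11.20 in the 3 segments. Goblet cell markers, 7 of 8 of them above background in each segment, had mean levels of 11.41 to 11.43 over the gastric, 12.03 to 12.07 over the duodenal and 12.68 to 12.70 over the colonic arrays. Of these 8, 1 was higher and 6 were lower in gastric than duodenal cells, beside 46.6% of all rows called. Duodenal and colonic cells differed in both directions, with 2 higher and 3 lower in duodenal cells (median 0.05), beside 34.2% of all rows called. Retnlb had by far the largest of these differences, at 9.23 in duodenal and 15.11 in colonic cells, while Tff3 stood at 15.24 and 14.83. Cyp2c55 is both in the colonocyte list and among the rows most like Aqp4 below. The part of either cell type in the aquaporin values was not tested.

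Aqp1, the constitutive water channel of red blood cells, capillary endothelium and kidney tubules, was above background everywhere and varied least among the members that were. It read 10.12, 10.12 and 10.06 in gastric cells, 10.61, 10.66 and 10.64 in duodenal cells and 10.82 and 10.80 in colonic cells. The values rose in small steps without overlap. Gastric cells were 1.45-fold below duodenal cells (limma adjusted p = 6.79e-08) and 1.64-fold below colonic cells (limma adjusted p = 1.14e-08). The 1.13-fold step from duodenal to colonic cells had an adjusted p of 0.0121 by limma, which was 0.0801 without colonic replicate 1.

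Endothelial and red blood cells are the cells best known for Aqp1. Endothelial markers had a mean level of 7.22 to 7.25 over the gastric arrays, 6.84 to 6.87 over the duodenal arrays and 6.79 to 6.81 over the colonic arrays. Of 12, 7, 5 and 5 were above background, and the junction gene Cdh5 was at background in all 3 segments. Gastric exceeded duodenal cells for 5 of the 12 endothelial markers and lay below for 2, beside 46.6% of all rows called. Esam, at 10.17 and 8.11, was among the higher and the receptor gene Tek, at 6.95 and 7.18, among the lower. Red blood cell markers were above background for 3 of 6 in gastric, 1 of 6 in duodenal and 0 of 6 in colonic cells (mean levels 6.93 to 7.0, 6.69 to 6.73 and 6.57 to 6.63). The part of either cell type in the Aqp1 values was not tested.

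Aqp2, the vasopressin-regulated channel of the kidney collecting duct, and Aqp6, an anion-conducting channel in vesicles of kidney intercalated cells, gave no difference that passed the test. Aqp2 read 6.79, 6.81 and 6.59 in gastric, 6.87, 6.80 and 6.69 in duodenal and 6.67 and 6.76 in colonic arrays. Its gastric minus duodenal difference was -0.06 (95% interval -0.20 to 0.08), and its duodenal minus colonic difference 0.07 (-0.09 to 0.23). Aqp6 read 6.55, 6.56 and 6.52 in gastric, 6.57, 6.41 and 6.52 in duodenal and 6.54 and 6.59 in colonic arrays. All groups of these 2 genes overlapped, and 1 array, duodenal replicate 1 for Aqp2, rose above 6.81. Avpr2, the vasopressin receptor gene that controls Aqp2 in the kidney, was at background in all segments too, at 6.58 in gastric and 6.55 in duodenal cells.

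The 3 aquaglyceroporins were all highest in duodenal cells. Aqp3, the basolateral channel of skin and of colonic epithelium, read 7.07, 7.16 and 7.05 in gastric arrays, 8.22, 8.21 and 8.12 in duodenal arrays and 6.79 and 6.62 in colonic arrays. The groups did not overlap, and the colonic mean was at background. The duodenal level was 2.13-fold the gastric level (gastric minus duodenal -1.09, SE 0.06, limma adjusted p = 2.37e-10) and at least 2.58-fold the colonic level (duodenal minus colonic 1.47, SE 0.06, limma adjusted p = 6.73e-11). Gastric cells were at least 1.21-fold above colonic cells (limma adjusted p = 9.93e-05).

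Aqp9, the glycerol channel of hepatocytes that is also found in leukocytes, read 6.83, 6.72 and 6.67 in gastric arrays, 7.72, 7.66 and 7.76 in duodenal arrays and 6.52 and 6.61 in colonic arrays. Only the duodenal mean of these 3 was above background. It was at least 1.86-fold the gastric level (limma adjusted p = 5.79e-10) and at least 1.87-fold the colonic level (limma adjusted p = 8.52e-10). The gastric excess over colonic cells, 0.17 (SE 0.06, limma adjusted p = 0.0321), lay between means at background and did not pass without gastric replicate 1 (0.126), gastric replicate 2 (0.0527) or colonic replicate 1 (0.234).

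Among 12 leukocyte markers, 1 was above background in gastric, 2 in duodenal and 1 in colonic cells. The T-cell genes Cd3g and Cd3e stood at 8.85 and 8.02 in duodenal cells and were at background in the other two segments. The granulocyte genes Csf3r, S100a8 and S100a9 were at background throughout. The mean level of the list was 6.69 to 6.73 over the gastric, 6.92 to 6.96 over the duodenal and 6.59 to 6.68 over the colonic arrays, and the part of leukocytes in the Aqp9 values was not tested.

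Aqp7, the glycerol channel of adipocytes, followed the same order at a low level. It read 6.64, 6.58 and 6.64 in gastric, 7.01, 6.98 and 7.08 in duodenal and 6.58 and 6.60 in colonic arrays. Duodenal arrays were the highest in every case, and gastric and colonic arrays overlapped (difference 0.03, 95% interval -0.08 to 0.14). Duodenal cells were at least 1.15-fold above gastric cells (limma adjusted p = 2.72e-06) and at least 1.15-fold above colonic cells (limma adjusted p = 9.36e-06).

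Aqp11, which in mice is needed for kidney tubule integrity, was also highest in the duodenum, but well above background in all segments. The gastric arrays read 8.13, 8.04 and 7.97, the duodenal arrays 9.43, 9.35 and 9.29, and the colonic arrays 8.39 and 8.40. No groups overlapped. Duodenal cells were 2.48-fold above gastric cells (gastric minus duodenal -1.31, SE 0.05, limma adjusted p = 2.35e-11) and 1.94-fold above colonic cells (duodenal minus colonic 0.96, SE 0.06, limma adjusted p = 8.54e-09). Gastric cells were 1.27-fold below colonic cells (limma adjusted p = 0.000222).

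Absorptive enterocyte markers were highest in the same segment as these 4 genes. Of 7 measured, 5, 5 and 4 lay above background in gastric, duodenal and colonic cells, with mean levels of 7.73 to 7.76, 10.42 to 10.46 and 7.52 to 7.53 over the arrays. Apoa4, an apolipoprotein gene of lipid absorption, stood at 7.05, 12.70 and 6.66. The enterocyte genes Fabp1 and Fabp2 were at background even in duodenal arrays. The part of enterocytes in the levels of Aqp3, Aqp7, Aqp9 and Aqp11 was not tested.

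**Figure D3:**
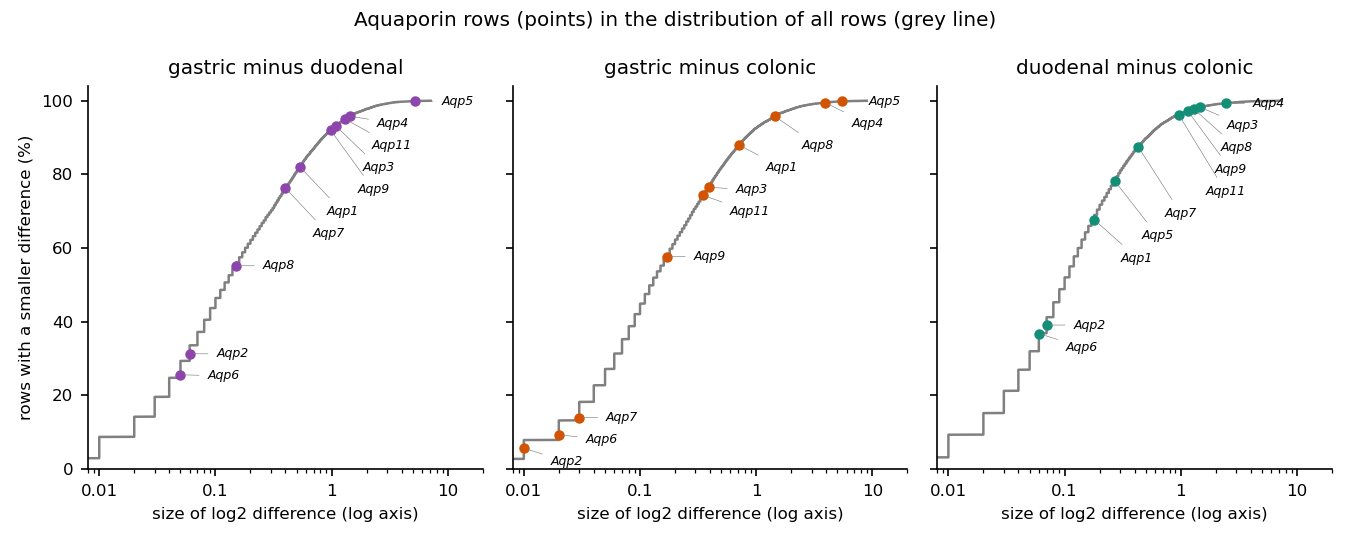
Share of all 18131 rows with a smaller difference (vertical axis, percent) against the size of the log2 difference (log axis), with all rows as a grey line and the aquaporin rows as points. In the gastric minus duodenal panel Aqp5 exceeds 99.9% of rows, while Aqp2 and Aqp6 exceed 31.3% and 25.6%.

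Set against the whole table, the differences of the aquaporins ranged from among the largest to among the smallest. Aqp5 had the difference of rank 16 between gastric and duodenal cells and rank 33 between gastric and colonic cells. Aqp4 had rank 86 between gastric and colonic cells and rank 121 between duodenal and colonic cells, more than 99.3% of rows. Aqp3 exceeded 98.2% of rows between duodenal and colonic cells, Aqp8 97.7%, Aqp9 97.2% and Aqp11 96.2%. At the other end, Aqp2 exceeded 5.67% of rows and Aqp6 9.33% between gastric and colonic cells, and 39.1% and 36.8% between duodenal and colonic cells. Both were at background throughout, so their small differences are no measure of how far these genes depend on segment.

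Aqp2, Aqp5 and Aqp6 follow each other in the mouse annotation (GRCm38.p6) on chromosome 15 with no other protein-coding gene between them, yet Aqp5 alone of the 3 rose above background in a segment mean. Faim2, the next gene on the side of Aqp2, also read at background, with means between 6.60 and 6.68. Aqp7 and Aqp3 are neighbours on chromosome 4 and were both highest in duodenal cells. Their outer neighbours Nfx1 and Nol6 spanned 0.17 and 0.27 log2 units over the segment means, against 0.43 for Aqp7 and 1.47 for Aqp3.

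Promoter sequences were looked up because groups of members moved together. RefSeq promoters (GRCm38.p6, 300 bases around the gene start) matched 9 of the 10 genes, all but Aqp4. A promoter is shown for the gastric gene Aqp5 (chr15:99590778-99591077, plus strand), the colonic gene Aqp8 (chr7:123462044-123462343, plus strand) and the duodenal genes Aqp3 (chr4:41098134-41098433, minus strand) and Aqp9 (the second of its 2 listed starts, chr9:71162584-71162883, minus strand). Each is written 5′ to 3′ along its gene, and capitals mark a match to one of 5 searched motifs.
Aqp5: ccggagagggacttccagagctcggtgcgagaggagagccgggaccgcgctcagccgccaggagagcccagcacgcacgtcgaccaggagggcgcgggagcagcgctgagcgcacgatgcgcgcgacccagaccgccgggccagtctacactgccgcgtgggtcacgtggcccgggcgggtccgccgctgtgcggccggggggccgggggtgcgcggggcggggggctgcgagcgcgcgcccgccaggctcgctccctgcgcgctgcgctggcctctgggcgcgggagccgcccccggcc
Aqp8: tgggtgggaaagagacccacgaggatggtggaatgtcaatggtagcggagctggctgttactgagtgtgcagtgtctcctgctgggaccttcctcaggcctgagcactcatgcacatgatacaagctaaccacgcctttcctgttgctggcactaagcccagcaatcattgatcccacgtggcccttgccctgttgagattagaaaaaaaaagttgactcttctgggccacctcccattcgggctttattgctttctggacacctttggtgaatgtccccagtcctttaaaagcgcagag
Aqp3: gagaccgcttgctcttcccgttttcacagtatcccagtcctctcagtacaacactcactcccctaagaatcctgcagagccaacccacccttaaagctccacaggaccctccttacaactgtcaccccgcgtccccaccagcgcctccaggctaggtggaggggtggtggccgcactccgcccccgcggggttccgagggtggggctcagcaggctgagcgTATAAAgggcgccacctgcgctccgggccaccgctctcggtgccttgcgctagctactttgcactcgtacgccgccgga
Aqp9: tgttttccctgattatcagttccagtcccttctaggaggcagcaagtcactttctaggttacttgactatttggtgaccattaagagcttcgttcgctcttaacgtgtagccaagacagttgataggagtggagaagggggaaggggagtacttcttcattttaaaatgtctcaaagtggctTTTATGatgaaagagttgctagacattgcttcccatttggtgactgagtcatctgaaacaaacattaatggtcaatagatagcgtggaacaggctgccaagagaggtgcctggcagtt

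The motifs, searched on both strands, were the TATA box TATAAA, the caudal-type (CDX) core TTTATG, the GATA site AGATAA, the forkhead site TGTTTAC and the HNF4 core CAAAGTCCA. They occur in 13.6%, 11.9%, 11.2%, 3.65% and 0.475% of the 32851 RefSeq promoters. Aqp3 has TATAAA from base -29 to base -24 relative to the start, and Aqp9 has TTTATG from base -68 to base -63 of the promoter shown. Neither Aqp5 nor Aqp8 holds any of the 5 in this window. The first listed start of Aqp9, which is not shown, holds none either, nor do the promoters of Aqp1, Aqp6 and Aqp11. A GATA match was found in 1 promoter of Aqp2 and 1 of Aqp7. The Aqp5 promoter is 79.7% G or C, more than 98.8% of promoters, beside 52.0% for Aqp8, 64.0% for Aqp3 and 43.7% for the Aqp9 promoter shown, and the median of all promoters was 52.7%. Such matches are a description of the sequence, not of binding.

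The genes with the most similar pattern were found for the 6 members that spanned at least 1 log2 unit, among 14295 other rows with a current symbol, by the root mean square difference over the 8 arrays after centring each row. For Aqp5 the nearest was Pcsk2, the prohormone convertase gene (0.14; segment means 12.06, 7.12 and 6.57), followed by Scara3 (0.20), Igfbp5 (0.23), Hdc, which makes histamine (0.23), and the gastric mucin gene Muc5ac (0.24). The nearest to Aqp4 was Reg3g, an antimicrobial lectin gene (0.07; means 10.78, 12.27 and 14.67), then H2-Ab1, which encodes an MHC class II chain (0.12), Hspa1a (0.16) and, among the 5 nearest, Cyp2c55 (0.23). Aqp8 was nearest to the magnesium channel gene Trpm6 (0.08; means 6.63, 6.68 and 7.93), Saa3, Pde2a, Ddit4 and Cyp2d12.

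Among the duodenal members, Aqp3 was nearest to Scin, the gene of the actin-severing protein scinderin (0.08; means 12.55, 13.73 and 12.22), then Smpdl3b, Otop3, Cyp2c70 and Bpnt1. Aqp9 was nearest to Odf2l (0.06), Cd52, Cyp4f15, Prodh2 and Rhod. Aqp11 was nearest to Proc, the gene of protein C (0.05; means 7.35, 8.61 and 7.67), then Mllt3, Lpgat1, Mro and Ube2l6. With 3 segments, many rows share an order, so these distances describe similarity only.

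Genes listed for fluid and ion transport, which include regulators such as Guca2a, Guca2b and Prkg2, differed between the segments in both directions. Of 30 measured genes, 11 were higher and 12 lower in gastric than duodenal cells, beside 46.6% of all rows called. Their median log2 difference was -0.05, beside -0.01 over all rows. Guca2b and Guca2a, which encode uroguanylin and guanylin, peptides that raise fluid secretion through cyclic GMP, were 9.57-fold (limma adjusted p = 4.52e-15) and 8.42-fold lower in gastric cells (limma adjusted p = 2.49e-16). The anion exchanger gene Slc26a6 was 7.89-fold and Prkg2, a cyclic GMP-dependent kinase gene, 6.48-fold lower.

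Against colonic cells, gastric cells had 6 of these 30 genes higher and 21 lower (median -0.48, beside -0.02 over all rows). Of all rows, 44.1% were called in that comparison. Guca2a was 10.7-fold lower, and Atp12a, the colonic proton pump, and Best2, an anion channel gene, were at least 6.94-fold and at least 5.52-fold lower in gastric cells. Between duodenal and colonic cells 6 of the 30 were higher and 15 lower in duodenal cells (median -0.17, beside -0.01), against 34.2% of all rows called. Slc26a6 was 5.87-fold higher in duodenal cells, and the chloride channel gene Ano1 4.96-fold higher in colonic cells. Of the 30 genes, 26 lay above background in colonic cells and 21 in each of the other segments.

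**Figure D4:**
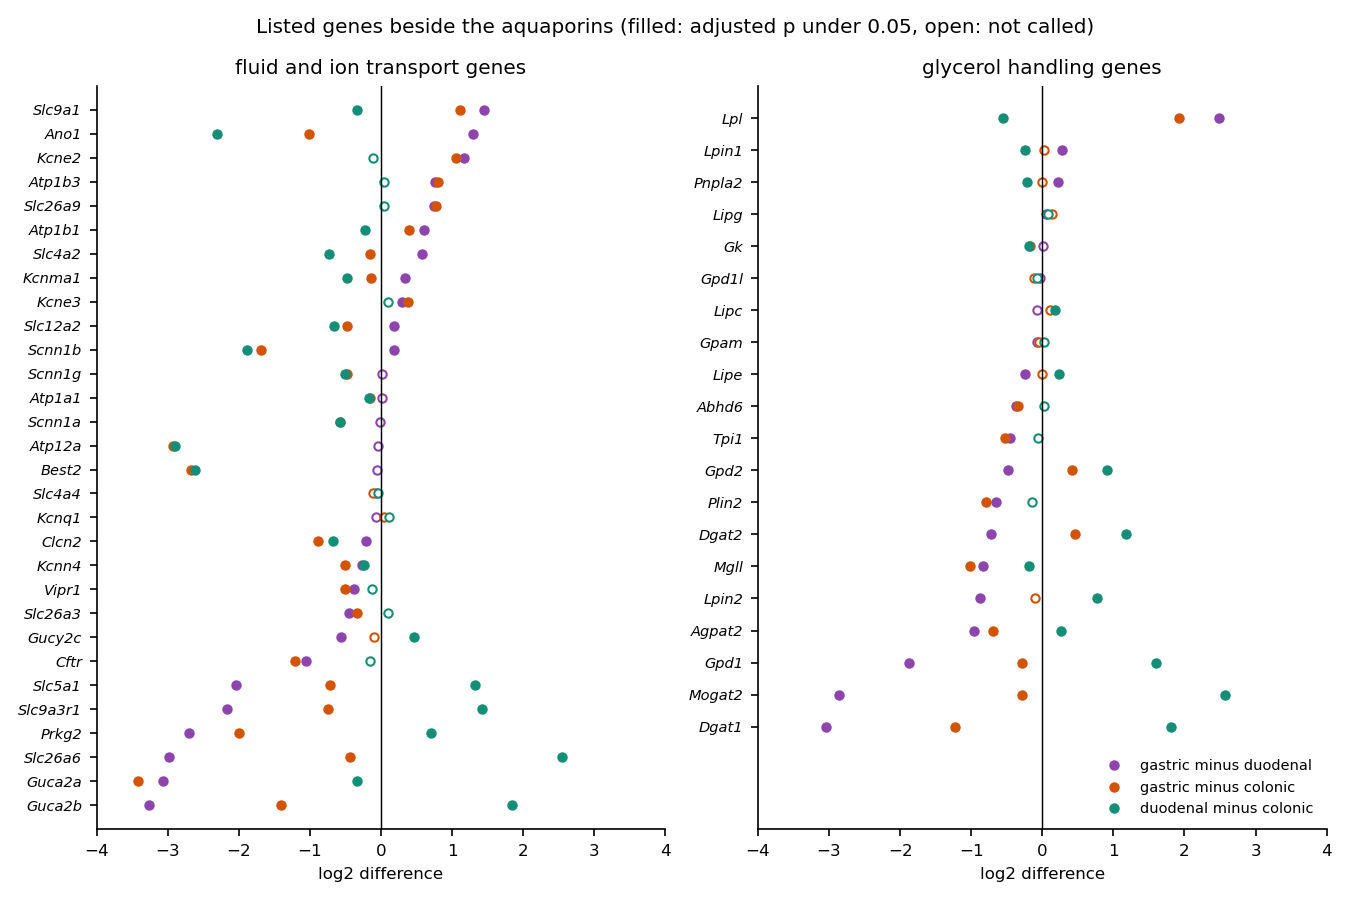
Log2 differences of 30 fluid and ion transport genes (left) and 20 glycerol handling genes (right) in the 3 comparisons, marked by colour, with filled points for an adjusted p under 0.05 and open points for genes not called. In the gastric minus duodenal comparison (purple) Guca2b and Dgat1 lie farthest to the left, at -3.26 and -3.04, and in the duodenal minus colonic comparison (green) Slc26a6 and Mogat2 lie farthest to the right, at 2.55 and 2.57.

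Glycerol handling genes were examined beside the aquaglyceroporins. Of 20 measured, 3 were higher and 12 lower in gastric than duodenal cells (median -0.41, beside -0.01 over all rows). Between gastric and colonic cells 3 were higher and 9 lower in gastric cells (median -0.10, beside -0.02). Between duodenal and colonic cells 9 were higher and 5 lower in duodenal cells (median 0.05, beside -0.01). Of all rows, 46.6%, 44.1% and 34.2% were called in these comparisons. The triglyceride synthesis genes Dgat1 and Mogat2 were 8.23-fold and 7.27-fold lower in gastric than duodenal cells (limma adjusted p = 4.52e-15 and 1.42e-15), and Gpd1, the glycerol 3-phosphate dehydrogenase gene, 3.69-fold lower. In duodenal against colonic cells Mogat2 was 5.94-fold, Dgat1 3.5-fold and Gpd1 3.03-fold higher. Lpl, the lipoprotein lipase gene, went the other way and was 5.57-fold higher in gastric than duodenal cells. Gk, the glycerol kinase gene, was at background in all segments.

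Of 20 genes known to regulate or move aquaporins, 8 were higher and 5 lower in gastric than duodenal cells, 9 higher and 5 lower in gastric than colonic cells, and 7 higher and 4 lower in duodenal than colonic cells (medians 0.00, 0.11 and 0.06, beside -0.01, -0.02 and -0.01 over all rows, of which 46.6%, 44.1% and 34.2% were called). Sgk1, a kinase induced by mineralocorticoids, was 4.98-fold higher in colonic than gastric and 2.47-fold higher in colonic than duodenal cells. The vesicle fusion gene Vamp2 was 2.86-fold and the protein kinase A subunit gene Prkar1a 3.12-fold higher in gastric than duodenal cells. Akap7, an anchoring protein gene of protein kinase A, was 2.46-fold lower there.

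Of 9 other small solute channel and carrier genes, 1 was above background in gastric, 3 in duodenal and 2 in colonic cells. None was higher and 5 were lower in gastric than duodenal cells, 1 was higher and 2 lower in gastric than colonic cells, and 2 were higher and 0 lower in duodenal than colonic cells (medians -0.16, -0.05 and 0.10, beside -0.01, -0.02 and -0.01 over all rows, of which 46.6%, 44.1% and 34.2% were called). The genes called lower in gastric than duodenal cells include Slc14a1 and Aqp12, which were at background in both groups, as was Aqp12 in its call against colonic cells. The glucose carrier gene Slc2a2 was at least 4.35-fold higher in duodenal than in gastric and than in colonic cells. The family members Aqp12 and Mip (the lens aquaporin), which were not among the 10 chosen rows, were at background in every segment mean, between 6.43 and 6.65. The urea transporter genes Slc14a1 and Slc14a2 were at background as well.

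Gastric mucous cell markers were highest in the same segment as Aqp5. Of 8 measured, 8 were above background in gastric, 7 in duodenal and 1 in colonic cells, with mean levels of 13.81 over the gastric arrays, 9.02 to 9.05 over the duodenal arrays and 6.77 to 6.79 over the colonic arrays. Muc6, the gland mucin gene, was at background in duodenal and colonic cells. Of the 8, 7 were higher in duodenal than colonic cells (median 2.98), beside 34.2% of all rows called in either direction. The differences in the list ran from 0.03 for Muc6 to 4.28 for Gkn2, with Muc5ac at 0.32 and Cldn18 at 0.34. The Aqp5 difference between these segments was 0.27. Of 12 endocrine markers, 12 were higher in gastric than duodenal cells and 10 higher in duodenal than colonic cells, with 2 not called. Of all rows, 46.6% and 34.2% were called in these comparisons in either direction. The part of mucous or endocrine cells in the Aqp5 values was not tested.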

How the data were processed

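The deposited values were log2 expression values in 1 table of 8 columns. The authors used GenomeStudio, lumi and limma, per the submitters' processing notes; versions and parameters are not given in the sources used here, nor is the log base, which was read as 2 from the range of 6.22 to 15.49. Sorted columns agreed to within 0.0043, the pattern that quantile normalization leaves, though the sources used here do not name that step. How probes were joined per gene and detection p-values were not given in the sources used here; precision is limited by the number of arrays.

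One limma 3.58.1 model (R 4.3.3) with a mean per segment was fitted to all 18131 rows and 8 arrays, and p-values were adjusted over all rows. The members and gene lists were chosen with earlier results of these data known. The 10 aquaporins were always named, with genes drawn from the up to 4 called rows of largest difference per list and comparison, and from the 5 rows of most similar pattern, of which 1 is not reported here. Other genes, such as Cdh5, Csf3r, S100a8, S100a9, Fabp1, Fabp2, Gk, Avpr2, Muc6, Slc14a1, Slc14a2, Mip, Aqp12 and chromosome neighbours, were named after their values were seen. Of the rows, 14305 matched a current symbol (GRCm38.p6), and genes of a list that had no matching row are not reported. The promoter motifs were chosen after the values were seen.

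Deviations of same-numbered arrays correlated between -0.014 and 0.013, and those of arrays with other numbers between -0.015 and 0.019. With 2 or 3 arrays per segment, such deviations cannot show whether replicate numbers pair arrays. The fit was also run on simulated data, the outcome of which is not reported here. Figures were drawn with matplotlib 3.10.9, and tables were handled in Python 3.11.15 (pandas 2.3.3, numpy 2.4.6).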

Additional observations from a re-analysis of the deposited data

How the results depend on the processing

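Of 471 values of a log2 difference of an aquaporin under an alternative setting, 463 kept their side of the threshold, and the other 8 kept direction but no longer passed. Called differences kept their direction in all of these, while some uncalled differences of Aqp2 and Aqp6 crossed 0 (gastric minus colonic -0.03 to 0.08 for Aqp2 and -0.05 to 0.01 for Aqp6). They concern the gastric minus duodenal difference of Aqp8 (adjusted p from 0.00914 to 0.0837 over 16 alternatives), the gastric minus colonic difference of Aqp9 (0.0154 to 0.234) and the duodenal minus colonic difference of Aqp1 (0.00449 to 0.0801), the smallest called differences. The cause was not tested beyond the loss of 1 array in 7 of these 8. The settings were quantile normalization again, median or 75th percentile centring, only rows with a mean above background, a mean trend with robust variance, only the compared groups, array weights, a replicate block and each array left out. Because sorted columns already agreed to within 0.0043, the normalization and centring settings could change little. Between gastric and duodenal cells, leaving out either colonic array gave the same values as only the compared groups. The 471 values are therefore not independent checks. Rows called numbered 7 to 8 between gastric and duodenal, 6 to 7 between gastric and colonic and 7 to 8 between duodenal and colonic cells. Replicate numbers do not show shared animals. With the replicate block the counts were 8, 6 and 8, and Aqp9 missed the threshold between gastric and colonic cells (adjusted p = 0.0515), and 2 of 8 arrays deviated most like an array of their own number. At the 90th percentile of the background rows 6, 9 and 4 aquaporins lay above it in gastric, duodenal and colonic cells, and at the 99th percentile 5, 7 and 4. Counts of called genes in the lists stayed within 1.5 times under both settings tried. The filter on dim rows left out Aqp2, Aqp6 and Aqp7, which then had no value. Signal near background limits what Aqp2, Aqp6, Aqp7 and Aqp9 can show.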
